A study of Homo sapiens with 8 samples.

Results

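The 82 cytosolic ribosomal protein genes of human EndoC-βH5 beta cells were followed through exposure to cytokines. They were chosen by name and not by measured values: every protein-coding gene of the deposited expression table whose symbol is RPL or RPS with a number, plus RPLP0, RPLP1, RPLP2 and RPSA, with the RPS6 kinase genes left out. The rule took 82 of the 16525 listed genes (13401 of them protein-coding), 50 for the large subunit and 32 for the small subunit. The EndoC-βH5 line, an established human model of the beta cell, was derived from fetal pancreatic rudiments, from which the immortalising SV40LT and hTERT transgenes were removed, and all 8 libraries share this 1 cell line. Treatment is the only difference the labels give, but the endings of the column names also split the libraries into 2 sets of 4. RNA was sequenced from 4 untreated control cultures and from 4 cultures exposed for 48 h to a mix of IL-1β at 50 U/mL with IFNγ and TNFα at 1000 U/mL each. Nothing in the sources used here says whether the 4 libraries of a group came from separate thaws or passages, so the p-values measure only the spread between these libraries. The values are CPM, the reads on a gene as a scaled share of the library total. As shares of a library, they cannot tell fewer cells expressing a gene apart from less RNA per cell, nor a loss of these RNAs from a gain of others.

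The cytosolic ribosome translates nuclear-encoded mRNAs. Its small subunit holds the mRNA and decodes it, and its large subunit joins the amino acids. Each ribosome carries a single copy of nearly every ribosomal protein, the stalk proteins P1 and P2 being exceptions, and a protein made without a partner is degraded. Most ribosomal protein mRNAs begin with a C followed by an unbroken run of pyrimidines, the 5′ terminal oligopyrimidine (TOP) tract, through which LARP1 and the mTORC1 kinase govern their translation and stability together with those of several translation factors and of snoRNA host RNAs. In beta cells this machinery carries a large load, since insulin makes up much of the protein these cells synthesise.

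The start sites below are shown because the TOP tract is the feature these mRNAs are best known to share. Each sequence runs 5′ to 3′ on the gene's strand, with 15 bases before the RefSeq start site and 15 bases from it on (GRCh38.p14). Capitals mark the longest run of a C and at least 4 further pyrimidines that begins within 10 bases of the start site, as far as it lies inside the 30 bases shown. The first 7 belong to 7 of the 8 genes that were lower under every setting tried, the next is a called gene, RPL22, followed by its copy RPL22L1, and the last 3 belong to genes of small change.
RPL3 (chr22:39319609-39319638, minus strand): gtaaggccgaccggCCTCTaccggcgggat
RPL4 (chr15:66504841-66504870, minus strand): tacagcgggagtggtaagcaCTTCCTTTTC
RPL6 (chr12:112411428-112411457, minus strand): tatttgtatcctcagtgaatcagaaccaga
RPLP0 (chr12:120201097-120201126, minus strand): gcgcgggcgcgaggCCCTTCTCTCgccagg
RPS3 (chr11:75399503-75399532, plus strand): gcccgcgagccaCTTCCTTTCCTTTCagcg
RPS3A (chr4:151099613-151099642, plus strand): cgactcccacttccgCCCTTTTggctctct
RPS4X (chrX:72277234-72277263, minus strand): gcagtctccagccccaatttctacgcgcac
RPL22 (chr1:6199581-6199610, minus strand): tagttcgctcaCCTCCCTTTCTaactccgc
RPL22L1 (chr3:170870181-170870210, minus strand): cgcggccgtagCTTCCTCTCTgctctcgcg
RPS12 (chr6:132814554-132814583, plus strand): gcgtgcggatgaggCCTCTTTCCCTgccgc
RPS16 (chr19:39435935-39435964, minus strand): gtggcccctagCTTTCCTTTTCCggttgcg
RPL39 (chrX:119791616-119791645, minus strand): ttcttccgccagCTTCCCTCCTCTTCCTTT

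Of the 82 members, 66 matched a RefSeq start site. In 43 of these (65.2%) the annotated start site was a C followed by at least 4 pyrimidines, often inside a run that begins further upstream, against 5.35% of the 10823 start sites matched over all listed protein-coding genes. Within 10 bases of it, a tract was found in 56 of 66 members (84.8%) and in 34.1% of all. The tract of RPL3 is short at 5 bases and that of RPL39 long at 22 bases, of which the last lie beyond the bases shown, while the windows of RPL6 and RPS4X hold none. A single annotated start site per gene was used as given, and no start site was measured here. In the promoters around these start sites, read on both strands, the ETS-type motif CCGGAAG was found in 34.8% of members and 18.5% of all genes, the YY1-type motif AAGATGGC in 10.6% and 5.19%, and the TATA sequence TATAAA in 9.09% and 5.61%.

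Between 36577438 and 40117636 reads per library lay on listed genes, out of totals of 46767972 to 51145634. The values proved to be whole multiples of 1 read in 100% of cases, so the reads behind each value are known. The columns carry no replicate number, but the name of each control column begins like that of 1 cytokine column. Such pairs are called A, B, C and D, and the names of A and B share an ending, as do those of C and D. All 10 beta-cell markers looked for were listed, among them INS and PDX1. Their summed level ranged from 23351 to 35975 CPM in control and from 28748 to 52483 CPM in cytokine libraries. This sum does not stand for each marker. INS had a mean of 2169 CPM in control and 1846 CPM with cytokines (log2 fold change -0.17, limma adjusted p = 0.684). It was lower in 3 of the 4 pairs and higher in pair D. In the paper's supplement INS moved in both directions across replicates. There PDX1 and MAFA were lower, and NKX6-1 higher, in each cytokine replicate than in the control of the same number. The 4 other islet hormones summed to 463 to 2177 CPM in control and 553 to 1996 CPM in cytokine libraries. Of 6 exocrine and duct markers 3 were listed (CPA1, KRT19 and SOX9), at a sum of 89.9 to 169 CPM in control and 85.9 to 169 CPM in cytokine libraries. Of 4 leukocyte markers only CD14 was listed (1.07 to 3.26 CPM, against 1.23 to 1.95 CPM), and of 5 stromal and endothelial markers only COL1A1 (0.0635 to 0.449 CPM, against 0.0427 to 0.844 CPM). The part of these other cell types in the results was not tested.

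The summed level of the 82 genes was lower with cytokines in each of the 4 pairs. In control libraries A to D it was 15399, 17148, 25457 and 19782 CPM, a mean of 19447 ± 4393 CPM (SD, n = 4). With cytokines it was 11294, 11024, 16295 and 14174 CPM, a mean of 13197 ± 2510 CPM (SD, n = 4). The ranges of the groups overlap, because cytokine library C lies above control library A, but within a pair the cytokine sum was 0.733, 0.643, 0.640 and 0.717 of its control. These genes took 1.95% to 3.19% of the reads on listed genes in control libraries and 1.396% to 2.057% in cytokine libraries. After TMM scaling, which resets each library to the bulk of its genes, the pair ratios were 0.768, 0.703, 0.771 and 0.801.

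Both subunits were lower in each pair. Large-subunit genes summed to 12735 ± 2896 CPM in control and 8347 ± 1539 CPM in cytokine libraries (SD, n = 4 each), and small-subunit genes to 6712 ± 1500 and 4850 ± 970 CPM. The ratio of the large to the small sum does not depend on library scaling. It was 1.89, 1.86, 1.90 and 1.94 in control libraries A to D and 1.75, 1.74, 1.69 and 1.71 in cytokine libraries, so the groups do not overlap. Without RPL3 the ratio was 1.66 to 1.70 in control and 1.58 to 1.64 in cytokine libraries, still without overlap. No test was made of these sums.

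**Figure D1:**
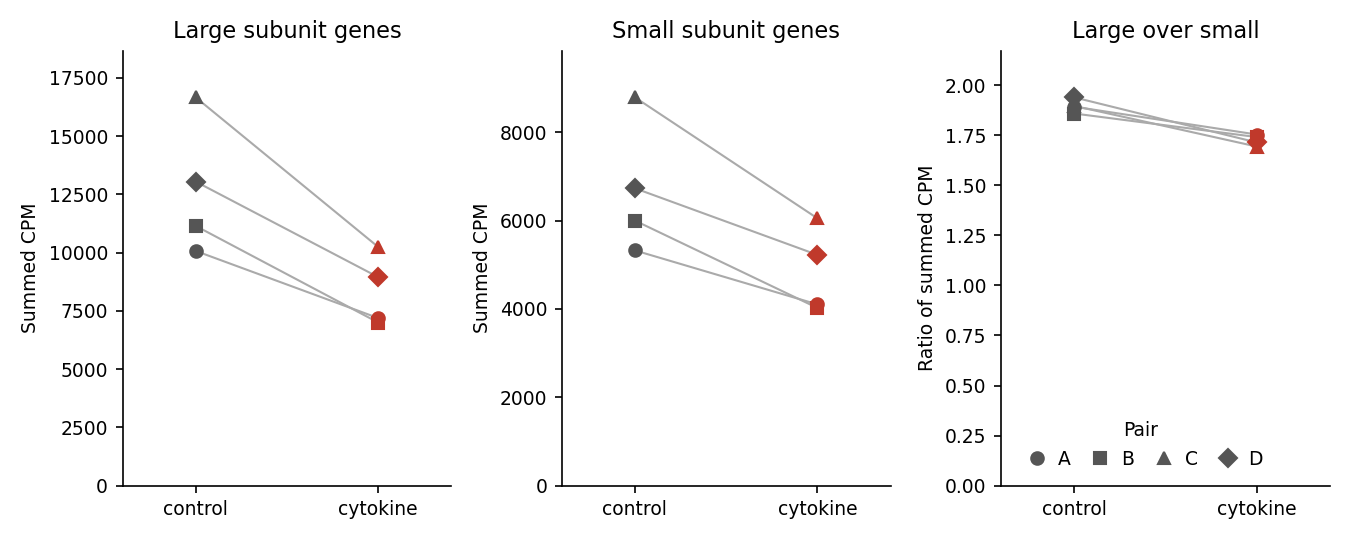
Summed CPM of the 50 large-subunit genes (left), the 32 small-subunit genes (middle) and the ratio of the sums (right), with 1 point per library, control in grey and cytokine in red, and a line joining each pair A to D. Every line runs down, and the ratio is 1.86 to 1.94 in control against 1.69 to 1.75 in cytokine libraries.

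Gene by gene, the members were lower far more often than higher. On log2(CPM + 0.1), limma fitted over all 16525 genes called 18 of the 82 members lower and 0 higher where the log2 fold change passed 0.5 in size and the Benjamini-Hochberg FDR was below 0.05. Over all genes 17.5% were called lower and 9.52% higher, so the share of members called lower (18 of 82) lay near that of the whole table. At an unadjusted p below 0.05, limma had 0 members higher and 33 lower, against 13.7% and 28.3% of all genes, and edgeR and DESeq2 without a block also called 0 higher. In all, 75 of the 82 had a negative log2 fold change, as did 10492 of all 16525 genes. The members' median was -0.38, against -0.17 over all genes and -0.04 over 1390 other protein-coding genes whose mean reached 100 CPM. This median stayed negative under every scaling tried, from -0.39 to -0.17. With TMM scaling the median of all genes moved to -0.01 and that of the members to -0.22. Of the 82, 66 stayed negative, while 8416 of all 16525 genes were negative. Then 13 members were called lower and 0 higher, against 11.6% of all genes called lower. Over the whole table the calls were 2896 lower and 1574 higher without TMM, and 1911 lower and 2168 higher with it.

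Of the 50 large-subunit genes 13 were called lower and the median log2 fold change was -0.40. Of the 32 small-subunit genes 5 were called lower and the median was -0.37. Over all genes 17.5% were called lower. No test of the difference between the subunits was made. In 19 members the 4 cytokine values all lay below the 4 control values, against 21.9% of all genes, and in 0 members they all lay above.

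Within pairs, most members were lower with cytokines. In 62 of the 82 the cytokine library was the lower one in all 4 pairs, against 43.6% of all genes, and in 1 it was the higher one in all 4 (RPL17). The median log2 fold change of the members was -0.29 in pair A, -0.52 in B, -0.52 in C and -0.26 in D. With the pairs as a replicate block, limma called 26 members lower, against 23.8% of all genes, and 1 higher, against 11.6%. At an FDR below 0.05 alone, the blocked fit put 63 of 82 members lower, against 39.1% of all genes. The 9 members added by the block included RPL10A, RPL11, RPL13, RPL23, RPL31, RPS6 and RPS23, all lower, and RPL22L1, which was higher.

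**Figure D2:**
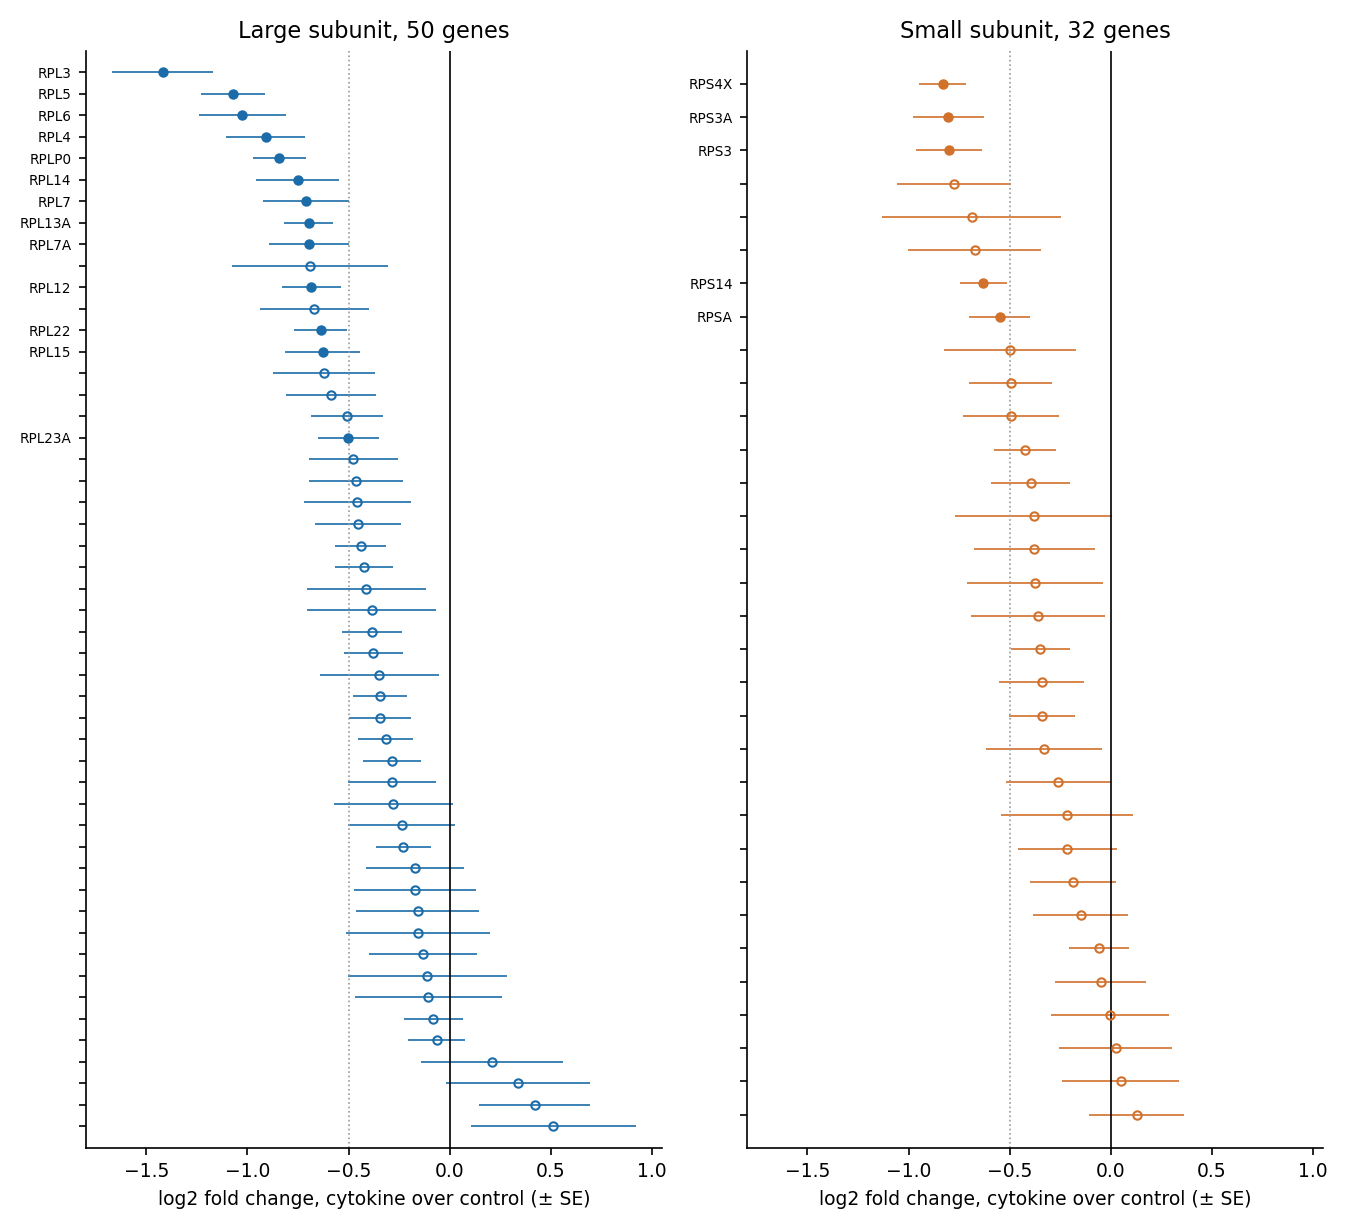
Log2 fold change with its standard error (limma on log2(CPM + 0.1), 4 cytokine against 4 control libraries) of each large-subunit gene (left) and small-subunit gene (right), sorted by change. Filled points, with gene names on the axis, are the 13 and 5 genes called lower, and the dotted line marks a log2 fold change of -0.5.

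A set of 8 genes was called lower under each of the 22 settings tried, single libraries left out included. RPL3 (uL3, beside the peptidyl transferase centre; ENSG00000100316, chromosome 22, 39312882 to 39320389) changed most. Its level was 1017, 1159, 2070 and 1710 CPM in control libraries A to D and 451, 427, 659 and 641 CPM in cytokine libraries. Every cytokine value lay well below every control value, and the log2 fold change was -1.42 (standard error 0.25, limma adjusted p = 0.00156), or 37.4% of control. RPL5 (ENSG00000122406, chromosome 1, 92831983 to 92841924), which with RPL11 and 5S rRNA forms the particle that binds MDM2, was 319, 348, 477 and 397 CPM in control and 158, 163, 207 and 202 CPM with cytokines. That is a log2 fold change of -1.07 (standard error 0.16, limma adjusted p = 0.000516), with no overlap. Its partner RPL11 was 259 ± 63.7 CPM in control and 180 ± 27.0 CPM with cytokines (SD, n = 4), a log2 fold change of -0.51 (standard error 0.18) that missed the threshold without the block (adjusted p = 0.0517, limma) and passed with it (adjusted p = 1.05e-05).

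RPL6 (ENSG00000089009, chromosome 12, 112405190 to 112418838) was 240, 271, 435 and 341 CPM in control libraries and 125, 127, 201 and 176 CPM in cytokine libraries. The groups did not overlap, and the log2 fold change was -1.03 (standard error 0.21, limma adjusted p = 0.00461). RPL4 (uL4, which lines the exit tunnel of the nascent chain; ENSG00000174444, chromosome 15, 66498015 to 66524532) was 643, 712, 1044 and 863 CPM in control and 368, 347, 533 and 486 CPM with cytokines. Its log2 fold change was -0.91 (standard error 0.20, limma adjusted p = 0.00537). RPLP0 (uL10, the base of the stalk that recruits elongation factors; ENSG00000089157, chromosome 12, 120196686 to 120201235) was 729, 751, 928 and 762 CPM in control and 431, 410, 476 and 446 CPM with cytokines. It was among the tightest of these groups, with a log2 fold change of -0.84 (standard error 0.13, limma adjusted p = 0.000792).

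The other proteins of the stalk, P1 and P2, moved less. RPLP1 was 212 ± 24.6 CPM in control and 182 ± 26.9 CPM with cytokines, a log2 fold change of -0.23 (standard error 0.14, limma adjusted p = 0.234). RPLP2 was 204 ± 37.7 and 155 ± 17.0 CPM, a log2 fold change of -0.38 (standard error 0.15, limma adjusted p = 0.0721; SD, n = 4 throughout). Neither was called, while in the blocked fit both passed the FDR threshold alone (adjusted p = 0.00352 and 8.3e-05, limma). The difference between RPLP0 and its partners was not tested.

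Among small-subunit genes, 3 were lower under every setting. RPS4X (ENSG00000198034, chromosome X, 72255679 to 72277300) was 563, 593, 591 and 486 CPM in control and 323, 305, 313 and 309 CPM with cytokines. Its cytokine libraries had an SD of only 7.68 CPM, and the log2 fold change was -0.83 (standard error 0.12, limma adjusted p = 0.000428). RPS3A (ENSG00000145425, chromosome 4, 151099573 to 151104652) was 185, 219, 314 and 249 CPM in control and 119, 119, 161 and 149 CPM with cytokines, a log2 fold change of -0.80 (standard error 0.18, limma adjusted p = 0.00578). RPS3 (uS3, at the mRNA entry channel; ENSG00000149273, chromosome 11, 75399486 to 75422280) was 572, 619, 509 and 399 CPM in control and 319, 333, 296 and 249 CPM with cytokines, also a log2 fold change of -0.80 (standard error 0.16, limma adjusted p = 0.00391). None of these 3 overlapped between the groups.

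**Figure D3:**
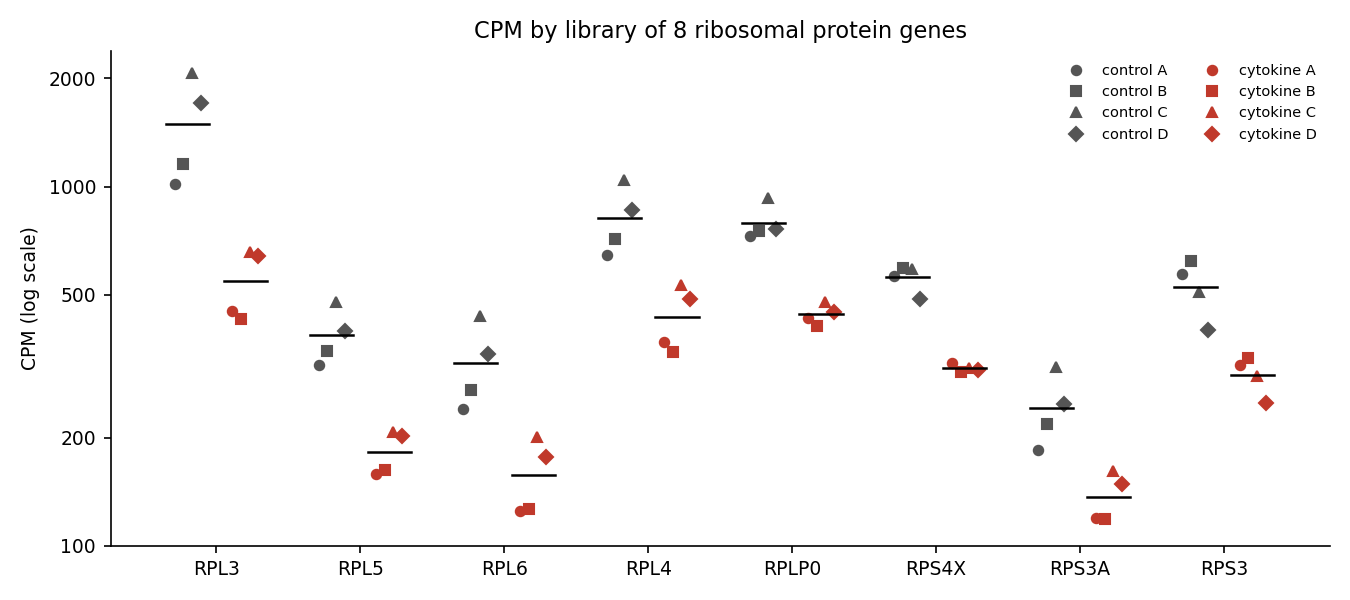
CPM of the 8 genes called lower under all 22 settings in each library on a log axis, control in grey and cytokine in red, with the marker giving the pair A to D and the bar the mean of 4 libraries. In each gene the 4 cytokine values lie below the 4 control values. RPL3 falls from a mean of 1489 to 545 CPM.

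The other 10 called members fell by less, to between 59.5% and 70.7% of control. RPL14 (log2 fold change -0.75), RPL7 (-0.71), RPL13A (-0.70), RPL7A (-0.69), RPL12 (-0.68), RPL22 (-0.64), RPL15 (-0.63) and RPL23A (-0.50) belong to the large subunit, RPS14 (-0.63) and RPSA (-0.55) to the small. RPL13A, the protein that leaves the ribosome to silence inflammatory mRNAs in IFNγ-treated monocytes, was 568, 591, 644 and 543 CPM in control and 355, 342, 397 and 353 CPM in cytokine libraries (standard error 0.12, limma adjusted p = 0.00142), with no overlap. RPS14, known for its loss in a myelodysplastic syndrome, was 163 ± 18.02 CPM in control and 105 ± 7.70 CPM with cytokines (standard error 0.12, limma adjusted p = 0.00228). RPL12, near the base of the stalk, was 318 ± 43.3 and 198 ± 28.999 CPM (standard error 0.15, limma adjusted p = 0.00529). RPSA, also known as the laminin receptor precursor, was 278 ± 47.5 and 189 ± 23.2 CPM (standard error 0.15, limma adjusted p = 0.0173). All SD are over n = 4. In all 18 called members the cytokine library was the lower one in each of the 4 pairs. In 16 the groups did not overlap, the exceptions being RPL7 and RPL7A. Both counts rest on the same values that called these genes, so they add no further support. RPL15, RPL22, RPL23A, RPS14 and RPSA were no longer called with TMM scaling, where their log2 fold changes lay between -0.48 and -0.34.

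Other genes with large changes were called in the paired fit only, and their levels differed strongly between the pairs. RPS6, the substrate of the S6 kinases, was 219, 249, 477 and 388 CPM in control and 135, 148, 261 and 228 CPM with cytokines. The groups overlap, yet each cytokine library lies at a similar distance below its own control, and the log2 fold change was -0.78 (standard error 0.28, limma adjusted p = 0.0576). With the pairs as a block it passed (adjusted p = 3.13e-08, limma). RPL10A was 86.7, 90.9, 243 and 197 CPM in control and 60.3, 55.7, 130 and 127 CPM with cytokines, a log2 fold change of -0.69 (standard error 0.39, adjusted p = 0.204, and 9.15e-07 with the block, limma).

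At the other end, several members hardly differed between the groups. RPS16 was 156, 181, 285 and 210 CPM in control and 163, 158, 287 and 198 CPM with cytokines, a log2 fold change of -0.05 (standard error 0.22). RPS12 was 59.5, 70.04, 136 and 114 CPM in control and 74.9, 67.4, 136 and 108 CPM with cytokines, a log2 fold change of 0.05 (standard error 0.29). Values of the groups interleave in both genes. RPL27 (log2 fold change -0.08, standard error 0.15) and RPS15 (-0.06, standard error 0.15) were similar, and their adjusted p-values were 0.717 and 0.8 (limma), which does not show that they stayed the same. With TMM scaling RPS16, RPL27 and RPS15 turned positive, at 0.11, 0.076 and 0.098, as 9 members in all changed sign. Among the shortest members, RPL41 and RPL39 had log2 fold changes of -0.11 (standard error 0.39) and -0.11 (standard error 0.37), which turned to 0.05 and 0.05 with TMM scaling. RPL39L, of the same coding length as RPL39, had a log2 fold change of 0.34 (standard error 0.36). RPL19 stood out among longer members, at 263, 302, 641 and 463 CPM in control and 272, 253, 512 and 431 CPM with cytokines, a log2 fold change of -0.16 (standard error 0.31, limma adjusted p = 0.735).

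The members with a positive log2 fold change were 7 genes, among them RPL22L1, RPL17, RPL39L, RPL26, RPS12 and RPS27L, and none was called without the block. RPL22L1, the copy of RPL22, was 1.15, 2.35, 4.94 and 2.99 CPM in control and 3.09, 2.24, 5.60 and 4.56 CPM in cytokine libraries. It was higher in 3 of the 4 pairs, with a log2 fold change of 0.51 (standard error 0.41, limma adjusted p = 0.375) and 0.0466 as the adjusted p with the block. RPL22, which is known to restrain its copy, was 48.4, 54.2, 67.5 and 61.1 CPM in control and 35.1, 33.7, 40.1 and 38.7 CPM with cytokines, a fall without overlap (log2 fold change -0.64, standard error 0.13, limma adjusted p = 0.00402). Per kilobase of coding sequence, RPL22L1 stood at 2.50%, 4.55%, 7.67% and 5.14% of RPL22 in control libraries and at 9.23%, 6.98%, 14.6% and 12.4% in cytokine libraries. The share was higher with cytokines in each pair, and the groups overlap only through cytokine library B and control library C.

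The other copies were few in reads beside the genes they resemble, with exceptions. Per kilobase, RPS27L, a p53 target, stood at 7.12% ± 1.397 of RPS27 in control and 9.26% ± 2.37 with cytokines, and RPL39L, best known from testis, at 3.19% ± 1.27 and 4.59% ± 2.28 of RPL39. RPL7L1 stood at 51.0% ± 7.32 of RPL7 in control and 64.2% ± 9.40 with cytokines. RPL26L1 stood at 555% ± 185 of RPL26 in control and 415% ± 118 with cytokines (SD, n = 4 throughout). These ratios overlap between the groups in each of the 4. Within pairs, those of RPS27L, RPL39L and RPL7L1 were higher with cytokines in all 4 pairs, as was that of RPL22L1. That of RPL26L1 was lower in all 4, in pair B only from 361% to 360.2%. A higher ratio need not mean a higher copy. RPL7L1 itself was lower in all 4 pairs (log2 fold change -0.38, standard error 0.15, limma adjusted p = 0.075), while RPL7 fell more (-0.71). RPS27L had a log2 fold change of 0.02, beside -0.34 for RPS27. RPL26L1 itself was 11.1 ± 4.69 CPM in control and 9.52 ± 2.94 CPM with cytokines, beside RPL26 at 2.12 ± 0.858 and 2.37 ± 0.785 CPM. RPL26 shares 59.0% of its exon bases with another annotated gene on the same strand, so its level and this ratio are uncertain.

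The lowest CPM values, which are not scaled to length, were those of RPS10, RPL17, RPL36A and RPL39L, at control means of 0.483, 0.923, 1.25 and 1.52 CPM. Among the members of low CPM, 5 share most of their exon bases with another annotated gene on the same strand, among them RPL36A (77.6%), RPS10 (77.0%), RPL17 (76.3%) and RPL26 (59.0%). The counting program's default leaves out reads that fit more than one gene. The level of these 5 is therefore uncertain, and none was called. Without them the median log2 fold change of the other 77 members was -0.39. RPS10 rested on 16 to 29 reads per library. RPS15A had a low CPM as well, at 14.3 ± 1.63 CPM in control and 11.2 ± 1.403 CPM with cytokines (SD, n = 4), without such an overlap of most bases.

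The highest levels were compared between genes per kilobase of coding sequence. RPL41, whose protein is the smallest of the ribosome, was highest in control cells at 3522 ± 1774 CPM per kb (SD, n = 4), and RPL3 came next at 1232 ± 405. RPL28, RPS27, RPS28, RPL13A, RPLP0, RPL23A and RPS2 were among those that followed, between 1097 ± 175 and 722 ± 209 CPM per kb. Neighbours among the 10 highest differed by less than the larger of their SDs, except RPL41 and RPL3, and RPL13A (963 ± 70.5) and RPLP0 (833 ± 95.7). Of the 10, RPL3, RPL13A, RPLP0 and RPL23A were called lower. With cytokines RPL41 stood at 3255 ± 1674 CPM per kb, RPL28 at 860 ± 95.7 and RPL3 at 450 ± 101. The order rests on the length used: by the union of all annotated exons RPL41 ranked 6, with RPL3 still at 2.

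The change was more negative in members of greater coding length. Among the 28 members with a coding length of 75 to 399 nt, 1 was called lower and the median log2 fold change was -0.30. Among the 27 of 405 to 564 nt, 3 were called lower and the median was -0.34. Among the 27 of 576 to 1281 nt, 14 were called lower, the median was -0.69 and all 27 were negative. Over all genes 17.5% were called lower and the median was -0.17. Across the 82 genes the Pearson correlation of change with coding length was -0.65 and the Spearman correlation -0.61. It was -0.61 and -0.58 in pairs A and B, -0.66 and -0.60 in pairs C and D, and -0.60 and -0.60 without RPL3. Within the large subunit (n = 50) it was -0.69 and -0.67, and within the small subunit (n = 32) -0.55 and -0.46.

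For comparison, the relation was also computed elsewhere. Across 1388 other protein-coding genes whose mean reached 100 CPM the correlation was -0.04 (Pearson) and -0.05 (Spearman), across the 475 of them no longer than the longest member -0.03 and -0.01, and across 76 mitochondrial ribosomal protein genes -0.03 and -0.04. In the members the change also followed the control level in CPM (-0.69 and -0.59), which itself contains length, and the level per kilobase (-0.56 and -0.35). It went little with the share of 100-base windows of a transcript that other loci hold too (-0.10 and -0.16). Genes are not independent replicates, and all these points come from the same 8 libraries, so the correlations are descriptions. No measure of RNA integrity or of coverage along transcripts was used here, and the part of either in the relation with length was not tested.

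**Figure D4:**
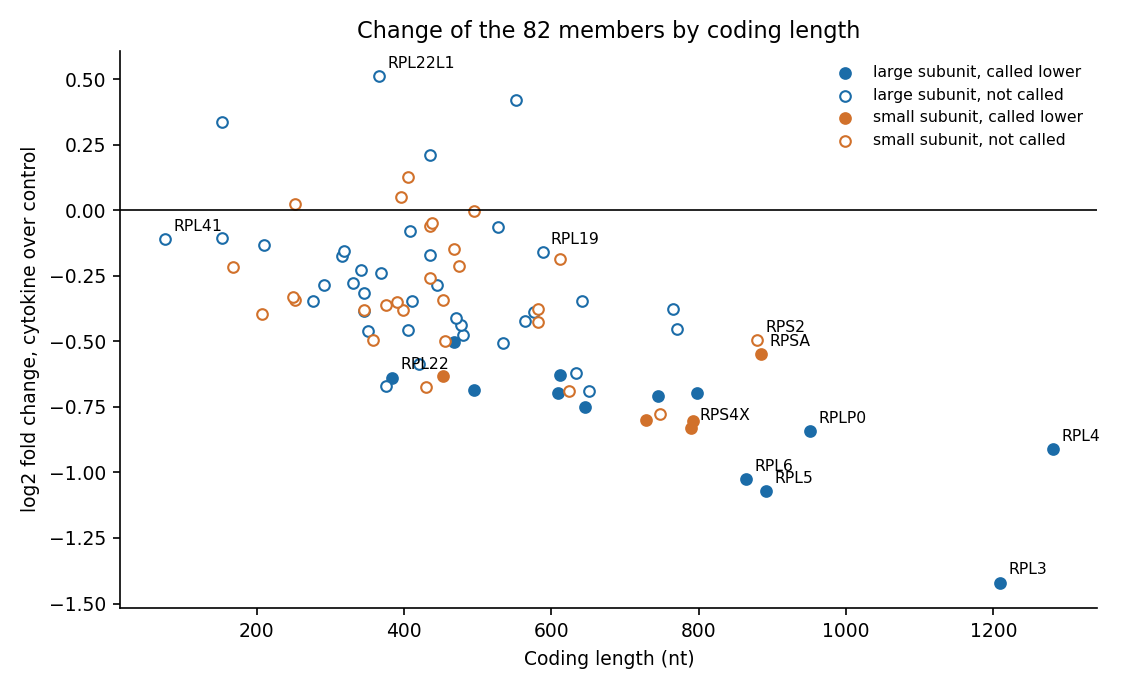
Log2 fold change of the 82 members, cytokine over control, against coding length in nucleotides, large-subunit genes in blue and small-subunit genes in orange, filled where called lower. Points tend down to the right, with 14 of the 18 called genes among the 27 longest. The shortest member, RPL41, is at -0.11, the longest, RPL4, at -0.91, and RPL3 is lowest at -1.42.

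Change was set beside the tract as well. The 56 members with a pyrimidine tract within 10 bases of the annotated start site had 12 genes called lower and a median log2 fold change of -0.38. The 10 members without one had 3 called lower and a median of -0.30. Over all genes 17.5% were called lower. Across the 66 members with a start site the correlation of change with tract length was -0.01 (Pearson) and -0.05 (Spearman). RPS16 and RPL39, with tracts of 12 and 22 bases, had log2 fold changes of -0.05 and -0.11, while RPL3, with 5 bases, had the largest change. These tract lengths rest on a single annotated start site per gene, and the start sites used in these cells were not measured.

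The level of the members differed between the pairs with one name ending and those with the other. Taking C and D over A and B, 73 of the 82 members were higher in control libraries and 72 in cytokine libraries, with median ratios of 1.503 and 1.467. RPS26 ran the other way, at 262, 281, 130 and 94.8 CPM in control libraries A to D and 199, 195, 90.7 and 88.8 CPM in cytokine libraries. What the name endings stand for is not given in the sources used here. Across the 82 genes the log2 fold change in A and B correlated with that in C and D by 0.88 (Pearson) and 0.91 (Spearman), as a description. The median was -0.39 in A and B and -0.40 in C and D. A term for the difference between the sets reached an FDR below 0.05 in 0 of the 82 members (limma), against 0.424% of all genes, and an unadjusted p below 0.05 in 1, RPL39L, against 11.8% of all genes.

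Other genes of the ribosome's life cycle were described from lists, in the same fit over all genes. That fit called 17.5% of all genes lower and 9.52% higher. With TMM scaling, 1911 of the 16525 genes were called lower and 2168 higher. Among ribosomal proteins that the naming rule leaves out, RACK1, the scaffold on the head of the small subunit, fell from 653 ± 112 to 419 ± 51.4 CPM (SD, n = 4; log2 fold change -0.63, standard error 0.16, limma adjusted p = 0.0109). FAU and RPL36AL were not called, with log2 fold changes of -0.04 and 0.15. RACK1 was no longer called with TMM scaling (-0.48).

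The list of translation factors and other mRNAs known for a TOP tract was mostly lower. Of its 14 listed genes 8 were called lower and 0 higher, all 14 were negative and the median log2 fold change was -0.64, against -0.17 over all genes. EEF2, the translocase, was 2679, 2811, 3525 and 2864 CPM in control and 1638, 1588, 2061 and 1691 CPM with cytokines, a log2 fold change of -0.77 (standard error 0.18, limma adjusted p = 0.00774). EEF1A1, which delivers aminoacyl-tRNA, fell from 2259 ± 449 to 1233 ± 227 CPM (-0.87, standard error 0.20, limma adjusted p = 0.00772). The subunits of initiation factor eIF3 that are encoded by EIF3L (-1.06), EIF3E (-0.72) and EIF3F (-0.51) were lower too, as was EEF1B2 (-0.84). The list also holds genes that are not translation factors, of which NAP1L1, a histone chaperone (-0.70), and HNRNPA1, an RNA-binding protein (-0.76), were called lower and TPT1 (-0.58) and NPM1 (-0.23) were not. With TMM scaling 7 of the 14 were called lower and the median was -0.49. Over all genes 17.5% were called lower without TMM and 11.6% with it.

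Of 13 snoRNA host genes that make no known protein, 5 were called lower and 0 higher, with a median of -0.43. The shares over all genes were 17.5% and 9.52%. With TMM scaling 4 of the 13 were called lower, against 11.6% of all genes, and the median was -0.27. SNHG7 was 42.3, 45.4, 55.3 and 49.2 CPM in control and 17.3, 16.6, 22.04 and 20.2 CPM with cytokines (log2 fold change -1.33, standard error 0.14, limma adjusted p = 4.17e-05), without overlap. SNHG29 fell from 130 ± 31.3 to 62.9 ± 14.97 CPM (-1.04, standard error 0.20, limma adjusted p = 0.00304), and SNHG8, SNHG32 and EPB41L4A-AS1 were also called lower. GAS5, the best known of them, was 28.96 ± 8.43 and 20.8 ± 5.46 CPM (SD, n = 4; -0.46, standard error 0.23, limma adjusted p = 0.16).

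Few of the factors that build ribosomes were called, against 17.5% lower and 9.52% higher over all genes. Of 10 proteins of the box C/D and H/ACA snoRNPs, which modify rRNA, none was called and the median was 0.16 (0.31 with TMM scaling). Of 29 genes of the small-subunit processome and 40S assembly 0 were called lower and 2 higher, with a median of 0.04, and with TMM scaling 4 were higher, with a median of 0.20. RRP12, an export factor of the pre-ribosomal subunits, was 21.7, 21.4, 30.1 and 28.8 CPM in control and 75.9, 70.3, 86.0 and 78.2 CPM with cytokines (log2 fold change 1.61, standard error 0.14, limma adjusted p = 1.33e-05), and UTP20 rose as well (0.63, adjusted p = 0.0243, limma). Of 33 genes of 60S assembly 0 were called lower and 1 higher, with a median of 0.08, and with TMM scaling 3 were higher, with a median of 0.24. The gene called without TMM was SBDS, which helps release EIF6 from the new 60S subunit, at 34.9 ± 8.63 CPM in control and 58.7 ± 14.7 CPM with cytokines (SD, n = 4; 0.75, standard error 0.21, limma adjusted p = 0.0194). Of 14 genes of RNA polymerase I and its factors, POLR1B was called lower (-0.57) and TAF1D higher (0.55). With TMM scaling POLR1B was no longer called (-0.41), and 0 of the 14 were lower and 2 higher.

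Genes of mTORC1, LARP1 and TOP mRNA control were called in both directions, 2 lower and 2 higher of 21. Over all genes 17.5% were called lower and 9.52% higher, so these counts lie near or below those shares. LARP1, which had the highest CPM of the list without regard to length, was not called (266 ± 16.1 CPM in control and 297 ± 18.7 CPM with cytokines, log2 fold change 0.16). SESN2, a leucine sensor that restrains mTORC1 (-0.50), and MXD4, a MAX partner that opposes MYC (-0.81), were lower, while LARP4 (0.58) and MXI1 (0.72) were higher. With TMM scaling SESN2 was no longer called (-0.35), and 1 of the 21 was lower and 3 higher. Of 18 genes of ribosome quality control and stalling 0 were called lower and 2 higher: GTPBP1, a GTPase that was higher in all 4 pairs and rose from 66.0 ± 2.83 to 117 ± 7.28 CPM (0.83, standard error 0.10, limma adjusted p = 0.000157), and ASCC3, a helicase that splits collided ribosomes (0.60, adjusted p = 0.034, limma).

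**Figure D5:**
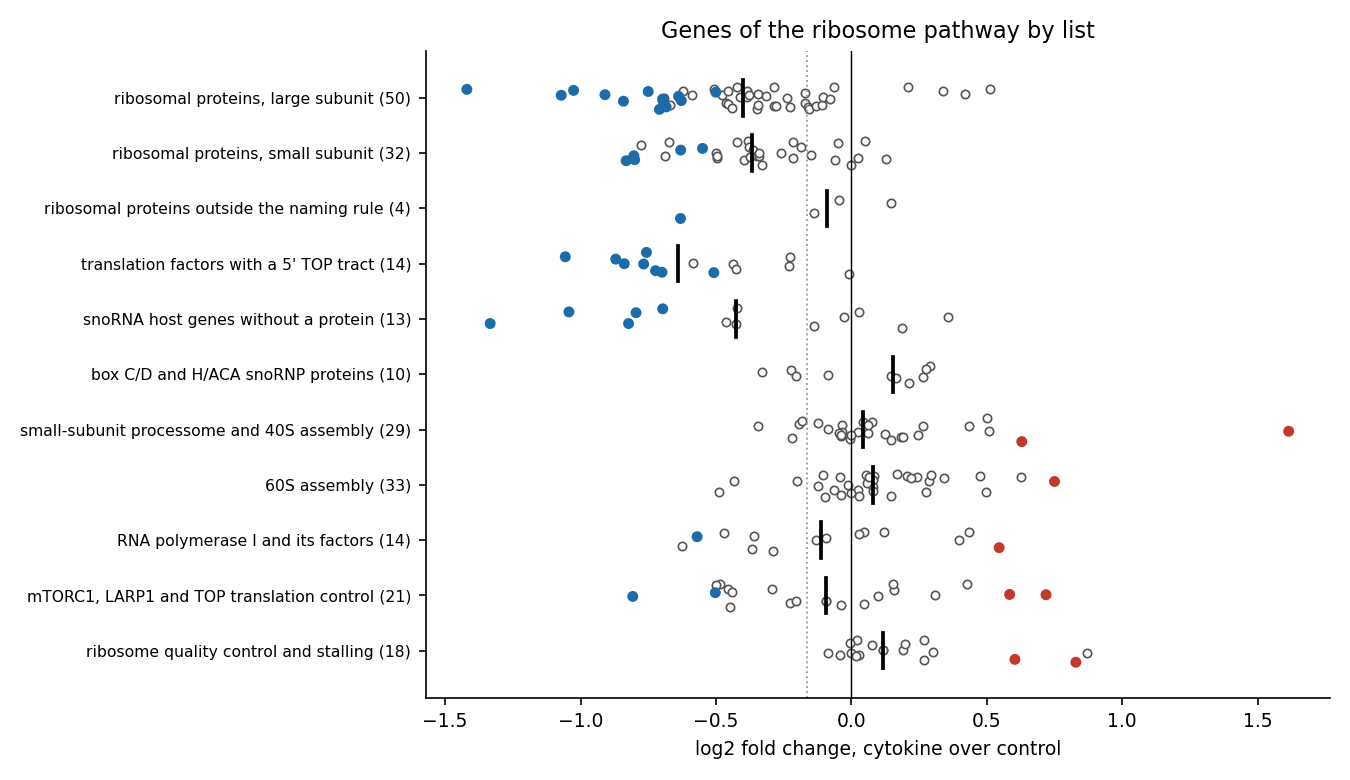
Log2 fold change, cytokine over control, of each gene in the ribosomal protein family and in 9 lists of the ribosome pathway, with the number of listed genes in brackets. Blue points were called lower, red points higher and open points not, black bars are medians, and the dotted line is the median of all 16525 genes (-0.17). The ribosomal proteins, the TOP list and the snoRNA hosts lie to the left, with medians of -0.37 to -0.64 (-0.21 to -0.49 with TMM scaling). The assembly lists lie near 0, with medians of 0.04 and 0.08 (0.20 and 0.24 with TMM scaling). With TMM scaling the median of all genes was -0.01.

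Mitochondrial ribosomal protein genes, which serve the other ribosome of the cell, had a median log2 fold change of -0.08 (n = 76). Of these, 5 were called lower and 0 higher, against 17.5% and 9.52% of all genes. With TMM scaling the direction turned, to a median of 0.07 with 1 called lower and 5 higher. Of 33 listed pseudogenes named after ribosomal proteins 2 were called lower and 0 higher, with a median of -0.41 at a median control level of 1.98 CPM. RPL3P4 was 1.86, 4.25, 11.2 and 11.7 CPM in control and 1.49, 1.13, 2.84 and 3.86 CPM with cytokines, a log2 fold change of -1.41 (standard error 0.57) beside the -1.42 of RPL3. Of the 100-base windows of the RPL3 transcript 22.9% are identical at other annotated loci. Reads from such windows may fit several loci, and the counting program's default leaves out reads aligned to several places. Among the 53 members with under 10% of windows shared 7 were called lower and the median was -0.35, and among the other 29 members 11 were called lower and the median was -0.44. RPS4X and RPS3, both called lower, share 0% of their windows.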

How the data were processed

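According to the labels and the methods, strand-specific mRNA libraries of 8 cultures were sequenced as 100-base paired reads on DNBSEQ, filtered with SOAPnuke, aligned to GRCh38 with TopHat2 2.1.1 and counted with HTSeq 0.9.1 at its defaults on the genes of Ensembl release 107. The authors deposited CPM values for genes above 0.5 CPM in at least 4 samples. Another 4 columns of values in the table were not used here. Every value was a whole multiple of 1 read within 0.01 read, so reads were recovered, and intervals from them would cover counting error only.

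Here limma 3.58.1 (R 4.3.3) was fitted with an intensity trend to log2(CPM + 0.1) over all 16525 genes, 4 against 4 libraries, without a block. Calls needed a log2 fold change of more than 0.5 in size and a Benjamini-Hochberg FDR below 0.05. Fold changes of low genes are understated on this scale. Alternatives were TMM, median-of-ratios, GAPDH-relative and member-free scaling, pseudocounts of 0.5 and 1, a filter at a mean of 1 CPM, no trend, no fold threshold, DESeq2 1.42.0 and edgeR 4.0.16 applied to the recovered reads, a replicate block, each library left out, and exon-union lengths. TMM together with the block, and the medians within A and B and within C and D, were added after seeing the data, as were the ratios of copies to their parent genes. The pairing comes from shared first parts of the column names. Across genes, the deviations of paired libraries from their group means had correlations of 0.457 (A), 0.504 (B), 0.748 (C) and 0.681 (D). Crossing A with B gave 0.447 and 0.489, so the check does not separate these. No library is a copy of another, the chi-square per gene between libraries of a group being 5.90 to 296.

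The members and lists were chosen with earlier results of these data known. Named with values were all called members, the 10 of highest level per kilobase, the 5 of lowest CPM, the 5 largest changes in each direction, copies of other members, members whose call or direction depends on the scaling, and, in each list, up to 3 called genes per direction and the most abundant gene. A few genes that the rule would name are not reported here. Names outside this rule, such as RPL11, RPL19, RPS6, RPS16, RPS26, the stalk genes and GAS5, were chosen after their values were seen. Coordinates and coding lengths come from GENCODE release 29 on GRCh38, start sites from RefSeq on GRCh38.p14. Tests were tried on simulated counts first. Tables and figures used Python 3.11.15, pandas 2.3.3, numpy 2.4.6, scipy 1.17.1 and matplotlib 3.10.9.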

Additional observations from a re-analysis of the deposited data

Results flagged for a closer look

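In 5 of the 172 groups of 4 values tested (each member in control and in cytokine libraries, and the summed levels), 1 library stood far from the other 3 by Dixon's 95% criterion. Chance would flag about 1 in 20 such groups if they were independent. They come from the same libraries, so this rate cannot be set against the count found. All 5 involved library C, the one with the highest summed level of ribosomal protein genes in both groups. In control library C, RPLP0 was at 928 CPM against 729 to 762 CPM in the other 3, and RPL23A at 439 CPM against 297 to 320 CPM. In cytokine library C, RPS7 was at 152 CPM against 109 to 114 CPM, RPLP1 at 222 CPM against 166 to 171 CPM, and RPL27 at 133 CPM against 95.6 to 95.9 CPM. RPLP0 was called lower also without control library C, and RPL23A was not.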

How the results depend on the processing

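Of the alternatives, TMM, median-of-ratios and GAPDH-relative scaling moved the members' median most, and GAPDH-relative scaling and the replicate block the count of lower calls. The members' median log2 fold change went from -0.38 to -0.22 with TMM, -0.22 with median-of-ratios and -0.17 relative to GAPDH, to -0.22 with edgeR and TMM, -0.22 with DESeq2, and -0.22 in both TMM fits with the replicate block, limma and edgeR. GAPDH itself had a log2 fold change of -0.21 (adjusted p = 0.35, limma). Relative to it 9 members were called lower. The replicate block called 1 member higher (RPL22L1) in limma, in edgeR with TMM and in limma with TMM, with 26, 18 and 18 lower (18, 12 and 13 in the same fits without the block). With each library left out in turn the lower calls ranged from 12 to 25, the higher calls stayed at 0, and the median ranged from -0.51 to -0.26. The lowest count came without cytokine library A or B and the highest without control library A. Control library A moved the median most, to -0.51 when left out. Over all genes limma called 17.5% lower in the main fit, 11.6% with TMM and 23.8% with the replicate block. For most other settings no such share is given here. These counts therefore show only how the calls of the members move with the setting.

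The number of members with a negative change went from 75 to 66 with TMM, 65 with median-of-ratios and with DESeq2, 61 relative to GAPDH, and 63 to 77 with a library left out. No called member changed sign under any alternative. Among the uncalled genes named by rule, RPL39 was 0.051 with TMM, 0.057 with median-of-ratios, 0.10 relative to GAPDH, 0.027 with edgeR and TMM, 0.035 with DESeq2, and 0.049 and 0.051 with TMM and the replicate block in edgeR and limma. RPL41 was 0.046, 0.052, 0.099, 0.072, 0.081, 0.047 and 0.046, and RPS10 was 0.12, 0.13, 0.17, 0.14, 0.15, 0.15 and 0.12, in that order. Relative to GAPDH, RPL26L1 was 0.036 and RPL36A 0.030. With a library left out, RPL26 ranged from -0.13 to 0.39, RPL26L1 from -0.36 to 0.065, RPL36A from -0.44 to 0.033, RPL39 from -0.36 to 0.14, RPL39L from -0.027 to 0.50, RPL41 from -0.41 to 0.18, RPS10 from -0.15 to 0.14 and RPS27L from -0.16 to 0.21. The cause was not tested. Members at a few reads, such as RPS10, are limited by the number of reads counted on them.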
